A study of Mus musculus with 18 samples.

Results

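Of the 34244 named genes measured by RNA-seq in mouse embryos labelled as homozygous for a null or a catalytically inactive allele of Dnmt3b, 35 form a list of imprinted genes outside the Dlk1-Dio3 cluster that are described here, and it does not hold every imprinted gene. They were chosen by symbol from a list of established imprinted loci, and the rule uses no measured value, although the list was drawn up with earlier results of these data known. All 35 were in the table, and all 35 were among the 19397 genes with at least 0.1 FPKM (read counts scaled to exon length and library size) in at least 3 of the 9 embryos, which were the genes tested. The list holds 14 genes expressed mainly from the maternal allele and 21 expressed mainly from the paternal allele, in some of them only in certain tissues.

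Imprinted genes are expressed from a single parental allele, and the choice is set by DNA methylation that one germline deposits at an imprinting control region and the other does not. In the female germline this methylation is laid down by Dnmt3a with its cofactor Dnmt3l, and after fertilization it is copied by Dnmt1 with the help of Uhrf1 and of the zinc finger protein Zfp57, which recruits Trim28. Many of these genes set the growth of the embryo and placenta, with paternally expressed genes such as Igf2 promoting growth and maternally expressed genes such as Igf2r, Cdkn1c and Grb10 restraining it, and at several loci a long non-coding RNA from the paternal allele silences neighbouring genes in cis.

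The study asked which effects of the DNA methyltransferase Dnmt3b on the embryo require its catalytic activity. Total RNA was taken from whole FVB embryos at E11.5, in midgestation, with 3 independent embryos each of Dnmt3b+/+, Dnmt3b-/- and Dnmt3bCI/CI, and 1 library per embryo. The null allele is constitutive and derives from mice with a loxP-flanked Dnmt3b, and the CI allele is a knock-in made by gene editing in FVB zygotes that replaces the catalytic proline and cysteine and leaves the protein in place. No treatment was given, the controls carry no engineered allele, and the parental alleles are not told apart by these values, so that a level is the sum over both.

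4 promoter windows are shown because they belong to the members on which the results turn: Airn and Igf2r, an antisense pair whose Airn level differed most firmly between genotypes, Peg12, the member that rose most firmly, and Zdbf2, whose upstream window holds the core of the Zfp57 motif. Each is the 250 bases before a RefSeq transcript start in GRCm38.p6 (the mm10 build of the files), written in the direction of the gene, with CG dinucleotides, the sites of DNA methylation, in capitals.
Airn, chr17:12741061-12741310, plus strand: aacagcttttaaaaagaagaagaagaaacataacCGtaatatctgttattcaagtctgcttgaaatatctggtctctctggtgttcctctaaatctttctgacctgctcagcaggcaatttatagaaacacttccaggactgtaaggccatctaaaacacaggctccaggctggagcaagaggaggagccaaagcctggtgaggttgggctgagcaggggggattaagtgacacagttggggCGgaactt
Igf2r, chr17:12769707-12769956, minus strand: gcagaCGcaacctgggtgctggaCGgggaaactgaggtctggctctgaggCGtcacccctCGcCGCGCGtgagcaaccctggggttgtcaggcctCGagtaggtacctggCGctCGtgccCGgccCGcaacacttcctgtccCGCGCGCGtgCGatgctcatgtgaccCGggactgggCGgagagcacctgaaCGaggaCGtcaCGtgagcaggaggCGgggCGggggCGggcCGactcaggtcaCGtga
Peg12, chr7:62464511-62464760, minus strand: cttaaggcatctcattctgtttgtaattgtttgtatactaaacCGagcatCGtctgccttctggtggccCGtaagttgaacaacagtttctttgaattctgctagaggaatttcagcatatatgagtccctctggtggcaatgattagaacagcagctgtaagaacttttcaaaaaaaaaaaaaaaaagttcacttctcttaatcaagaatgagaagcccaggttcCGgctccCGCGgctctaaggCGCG
Zdbf2, chr1:63200108-63200357, plus strand: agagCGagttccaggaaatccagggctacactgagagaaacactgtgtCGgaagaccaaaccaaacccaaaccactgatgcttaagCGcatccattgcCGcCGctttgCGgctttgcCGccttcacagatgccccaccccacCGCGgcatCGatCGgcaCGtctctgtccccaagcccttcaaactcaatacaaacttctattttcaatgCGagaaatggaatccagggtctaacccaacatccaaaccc
The Airn window had 2 CG dinucleotides, the Peg12 window 8, the Zdbf2 window 13 and the Igf2r window 27, against a median of 6.0 over all 32851 windows of this length. Of these windows, 81.2% had at least as many as Airn and 8.56% at least as many as Igf2r. The windows end at the transcript start, so CG dinucleotides past it were not counted. A second Zdbf2 window, at chr1:63273019-63273268 beside the start of the coding transcript, had 26. In all, 29 members had 44 windows. The letters TGCCGC, searched on both strands (so also GCGGCA, which like TGCCGC includes a CG), occurred 3 times in the Zdbf2 window printed above. They were present in 7 of the 44 member windows (15.9%), which belong to 6 genes, and in 8.68% of all windows. A match of letters is a description of the window and not a binding site.

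The libraries differed in ways that bear on every value below. Library totals, worked back from the lowest FPKM values and annotated exon lengths, ranged from 38451729 to 49808777 reads. Reads over the whole Dnmt3b gene gave 2.25, 1.62 and 2.04 FPKM in Dnmt3b+/+ and 2.45, 3.12 and 3.33 FPKM in the embryos labelled Dnmt3b-/-. This goes against a lower RNA level over the whole gene in the latter, which are named here by their label. Such a sum does not test whether the protein is present. The paper genotyped embryos on yolk sac DNA and reports many hypomethylated regions in Dnmt3b-/- embryos. Dnmt3b+/+ embryo 2 had almost no hepatocyte transcript, with Alb at 0.103 FPKM against 85.7 and 43.7 FPKM in embryos 1 and 3, and the highest Tubb3, a neuronal tubulin, at 273 FPKM. Dnmt3b+/+ embryo 1 and Dnmt3bCI/CI embryo 3 had the lowest levels of the heart gene Nppa, at 0.104 and 0.210 FPKM, and were the only 2 with Xist above 1 FPKM, at 63.2 and 45.3 FPKM. The Y-linked gene Ddx3y was at 0.0039 and 0.0045 FPKM in these 2 and between 3.77 and 5.06 FPKM in every other embryo. By these transcripts these 2 were female and all embryos labelled Dnmt3b-/- were male. Sex was thus not balanced between genotypes, and its part in the values was not tested. Among the embryos labelled Dnmt3b-/-, embryo 1 was nearer the controls than embryos 2 and 3 in some tissue markers, with the muscle gene Myog at 17.2 FPKM against 5.76 and 5.87 FPKM and the embryonic globin Hbb-bh1 at 113 FPKM against 501 and 265 FPKM, but not in every member described below. In whole embryos, fewer cells of a type and less RNA per cell cannot be told apart.

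In Dnmt3b+/+ embryos these genes ran from rank 4 to rank 18516 of all 34244 by mean level. H19, a maternally expressed long non-coding RNA, had 1012, 885 and 1096 FPKM with a mean of 997.7 FPKM, the highest of the members. Cdkn1c, a maternally expressed inhibitor of cyclin-dependent kinases, averaged 328.9 ± 49.8 FPKM (SD, n = 3), the growth factor gene Igf2 296.2 ± 29.2 FPKM (SD, n = 3), and Nnat, a paternally expressed proteolipid gene of the nervous system, 284.5 ± 32.5 FPKM (SD, n = 3). The ranges of these last 3 overlap, so their order is not resolved, while the lowest H19 embryo lies well above the highest of them. These 4 genes were among the 100 most abundant. Mest followed at 122.5 FPKM and Gnas at 75.2 FPKM, and their ranges overlapped neither each other nor those above. A further set from Grb10 at 63.5 FPKM to Peg12 at 10.5 FPKM brought the number at 10 FPKM or more to 16, 15 members lay between 1 and 10 FPKM, and neighbours in this middle order mostly overlapped. 4 members averaged under 1 FPKM. They are Phlda2, a placental growth restrainer at 0.658 FPKM, the long non-coding RNA Kcnq1ot1 at 0.491 FPKM, the transporter gene Slc22a18 at 0.282 FPKM, and Ascl2, a trophoblast transcription factor at 0.119 FPKM. Ascl2 rested on 4 to 11 reads per embryo, Slc22a18 on 9 to 41 and Phlda2 on 13 to 44, so that differences of a few reads move them. For Airn, Kcnq1ot1, Impact and Zrsr1 the annotated exon length gave no whole number of reads, so the length behind their values differs from it and their place in this order is uncertain, whereas comparisons of a gene between embryos do not depend on it.

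**Figure D1:**
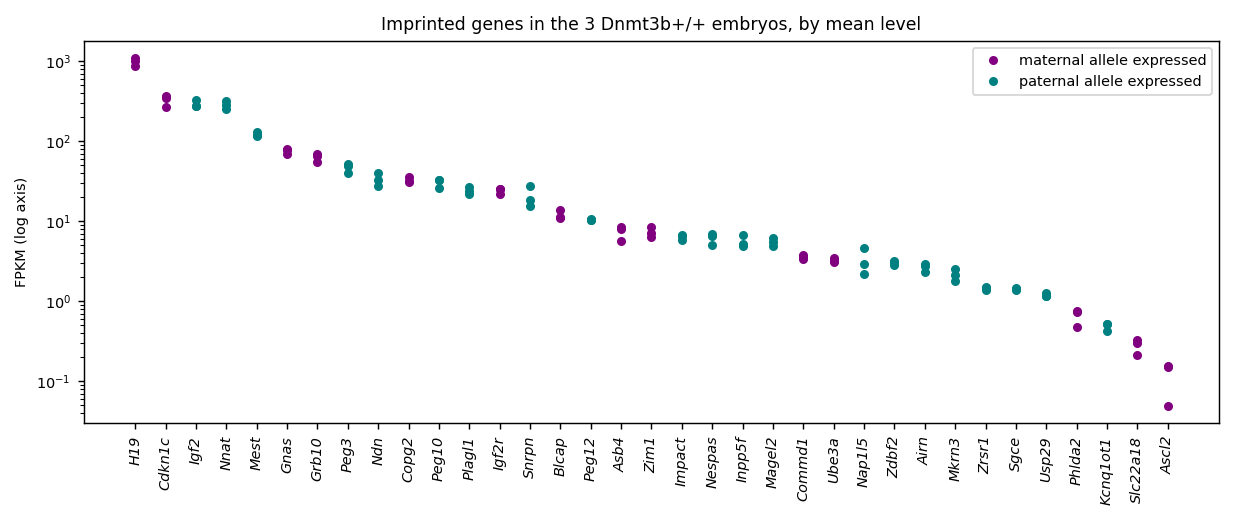
Level in FPKM on a log axis of the 35 imprinted genes in the 3 Dnmt3b+/+ embryos, 1 point per embryo, ordered by the mean and coloured by the parental allele expressed. The members run from H19 at 997.7 FPKM to Ascl2 at 0.119 FPKM, and maternally and paternally expressed genes are found along the whole order.

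The first comparison sets embryos labelled as homozygous for the null allele against wild type. Relative to Dnmt3b+/+, 13 of 35 (37.1%) passed an adjusted p of 0.05 in the embryos labelled Dnmt3b-/- (limma on log2(FPKM + 0.1), Benjamini-Hochberg over all 19397 tested genes), 4 higher and 9 lower. In the same test 25.8% of all tested genes passed, with 9.41% higher and 16.4% lower, and among genes of at least 1 FPKM 30.1% passed. The genes that rose were Peg12, Mest, Copg2 and Commd1, and those that fell were Igf2, Zim1, Sgce, Plagl1, Airn, Inpp5f, Gnas, Nespas and Zdbf2. With a fold change of at least 2 as well, 2 of 35 (5.71%) passed against 4.45% of all genes, both lower, namely the antisense RNAs Airn and Nespas. The embryos of both genotypes did not overlap for 19 members, 5 above and 14 below, against 38.9% of all genes. The median log2 fold change of the members was -0.21 and that of all tested genes -0.07. With median-of-ratios scaling these were -0.14 and -0.0082, and with quantile normalization -0.15 and 0.03, so the sign for all genes depends on the scaling. By allele, 2 maternally expressed genes rose and 2 fell of 14, with a median of -0.18, and 2 paternally expressed genes rose and 7 fell of 21, with a median of -0.27, and a difference between these alleles was not tested.

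**Figure D2:**
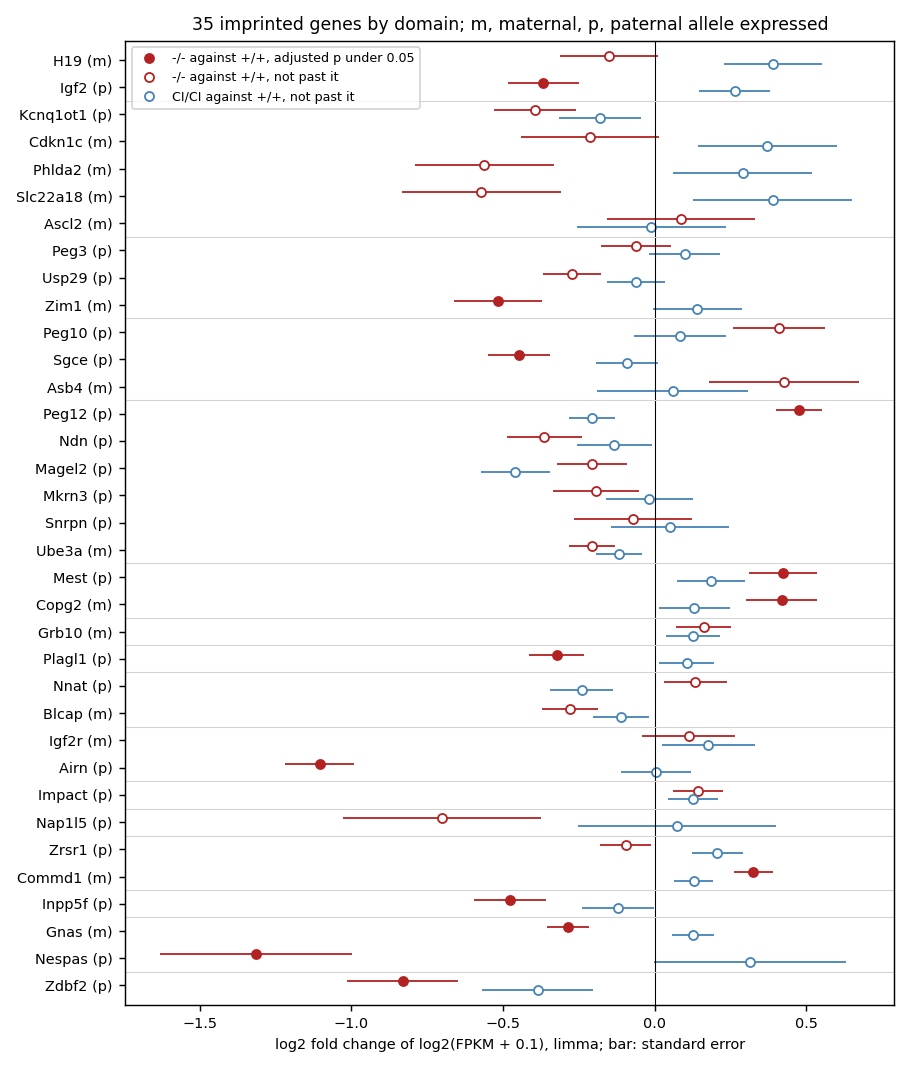
Log2 fold change with its standard error (limma on log2(FPKM + 0.1), 3 embryos per genotype) of the 35 imprinted genes against Dnmt3b+/+, in red for embryos labelled Dnmt3b-/- and in blue for Dnmt3bCI/CI, with thin lines between domains. The 13 filled red points passed an adjusted p of 0.05, Airn and Nespas lie farthest to the left, and no blue point is filled.

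At the Igf2r domain, the paternally expressed antisense RNA Airn was lower in every embryo labelled Dnmt3b-/-. Airn (chr17:12741311-12860136, plus strand) starts within Igf2r (chr17:12682406-12769664, minus strand) and silences it in cis on the paternal chromosome. Its level was 2.80, 2.30 and 2.92 FPKM in Dnmt3b+/+, 1.25, 1.14 and 1.16 FPKM in Dnmt3b-/-, and 2.99, 2.65 and 2.40 FPKM in Dnmt3bCI/CI. The Dnmt3b-/- embryos lay close together and far below all 6 others. The log2 fold change against Dnmt3b+/+ was -1.10 ± 0.11 (SE, adjusted p = 0.000704), or 2.15-fold lower, and it passed in 18 of 18 alternative settings. Igf2r, the receptor that clears Igf2, had 22.0, 25.3 and 25.4 FPKM in Dnmt3b+/+, 22.0, 29.6 and 27.4 FPKM in Dnmt3b-/-, and 31.1, 30.1 and 21.9 FPKM in Dnmt3bCI/CI. The genotypes overlapped for Igf2r (log2 fold change 0.11 ± 0.15, adjusted p = 0.622). Exons of the 2 genes share no bases in the annotation, but Airn runs through Igf2r introns.

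At the Gnas complex both measured transcripts were lower in Dnmt3b-/-. Nespas (chr2:174281237-174295436, minus strand), a paternally expressed antisense RNA, had 5.04, 6.54 and 7.02 FPKM in Dnmt3b+/+, 4.44, 1.74 and 1.80 FPKM in Dnmt3b-/-, and 7.47, 7.02 and 8.55 FPKM in Dnmt3bCI/CI. Embryo 1 of Dnmt3b-/- lay just below the lowest control and the other 2 far below, for a log2 fold change of -1.31 ± 0.32 (adjusted p = 0.0191), or 2.48-fold lower. Nespas was no longer past the threshold when Dnmt3b+/+ embryo 2 (adjusted p = 0.0519), Dnmt3b+/+ embryo 3, Dnmt3b-/- embryo 2 or Dnmt3b-/- embryo 3 was left out, with a highest value of 0.0688, whereas without Dnmt3b-/- embryo 1 the log2 fold change was -1.74. Gnas (chr2:174284320-174346744, plus strand), which encodes the stimulatory G protein alpha subunit and further products of the same locus, had 68.6, 77.7 and 79.4 FPKM in Dnmt3b+/+, 61.0, 63.8 and 60.1 FPKM in Dnmt3b-/-, and 81.5, 79.2 and 85.4 FPKM in Dnmt3bCI/CI. All Dnmt3b-/- embryos lay below all others, with a log2 fold change of -0.28 ± 0.07 (adjusted p = 0.0196). Without Dnmt3b+/+ embryo 2, Dnmt3b+/+ embryo 3 or Dnmt3b-/- embryo 3 the Gnas call was lost, with adjusted p up to 0.0691. Of the exon bases, 38.5% of Nespas and 22.0% of Gnas are shared with genes on the opposite strand, each other included, and the strandedness of the counts is not stated, so reads there cannot be assigned.

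Zdbf2, a paternally expressed gene of the brain and pituitary axis, fell from 3.06, 2.87 and 3.22 FPKM in Dnmt3b+/+ to 1.27, 1.72 and 2.12 FPKM in Dnmt3b-/-, with 2.82, 2.00 and 2.17 FPKM in Dnmt3bCI/CI. Its log2 fold change of -0.83 ± 0.18 (adjusted p = 0.0138) was the largest among the protein-coding members that passed, and the Dnmt3bCI/CI embryos lay between, overlapping those of Dnmt3b-/- and below those of Dnmt3b+/+. The call held in 17 of 18 alternatives. It was lost (adjusted p = 0.0551) only when the 2 embryos lowest in the heart gene Nppa, which are also the 2 with Xist, were left out together.

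At the H19/Igf2 domain the paternally expressed growth factor moved and the maternally expressed RNA did not pass the test. Igf2 (chr7:142650766-142666816, minus strand) had 278.7, 280.0 and 329.9 FPKM in Dnmt3b+/+, 263.6, 222.8 and 204.5 FPKM in Dnmt3b-/-, and 358.4, 373.9 and 332.4 FPKM in Dnmt3bCI/CI. The 3 genotypes were ordered without overlap, Dnmt3b-/- lowest and Dnmt3bCI/CI highest. Against Dnmt3b+/+ the log2 fold change was -0.37 ± 0.12 (adjusted p = 0.0492), which passed in 4 of 18 alternatives, and leaving out any embryo but Dnmt3b-/- embryo 1 ended the call, with adjusted p up to 0.162. In the annotation, 62.8% of its exon bases are shared with the same-strand read-through model Gm49394. H19 (chr7:142575529-142578143, minus strand) had 1031, 897 and 777 FPKM in Dnmt3b-/-, overlapping the Dnmt3b+/+ embryos (log2 fold change -0.15 ± 0.16, adjusted p = 0.524), and 1251, 1509 and 1169 FPKM in Dnmt3bCI/CI.

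In the Kcnq1ot1 domain on the same chromosome arm, no member passed in Dnmt3b-/- against Dnmt3b+/+. Kcnq1ot1, the paternally expressed RNA that silences the domain, had 0.516, 0.430 and 0.527 FPKM in Dnmt3b+/+ and 0.422, 0.324 and 0.308 FPKM in Dnmt3b-/-, with 0.413, 0.451 and 0.398 FPKM in Dnmt3bCI/CI (Dnmt3b-/- against Dnmt3b+/+: log2 fold change -0.39 ± 0.13, adjusted p = 0.0618). Cdkn1c had 272.1, 349.4 and 365.1 FPKM in Dnmt3b+/+, 403.6, 260.0 and 212.3 FPKM in Dnmt3b-/- and 391.5, 485.7 and 394.8 FPKM in Dnmt3bCI/CI. The Dnmt3b-/- embryos spanned the controls from above to below (adjusted p = 0.525). Phlda2, Slc22a18 and Ascl2 had log2 fold changes of -0.56, -0.57 and 0.09 with adjusted p of 0.103, 0.14 and 0.814.

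At the Peg3 domain the maternally expressed zinc finger gene Zim1 was lower while Peg3, the paternally expressed zinc finger gene beside it, did not pass. Zim1 had 7.10, 6.46 and 8.56 FPKM in Dnmt3b+/+, 5.43, 5.02 and 4.84 FPKM in Dnmt3b-/-, and 8.93, 9.14 and 6.47 FPKM in Dnmt3bCI/CI. All Dnmt3b-/- embryos lay below the 6 others (log2 fold change -0.52 ± 0.15, adjusted p = 0.0329), and the call was lost without Dnmt3b+/+ embryo 1, Dnmt3b+/+ embryo 3, Dnmt3b-/- embryo 2 or Dnmt3b-/- embryo 3, with adjusted p up to 0.103. Peg3 had 48.5, 40.1 and 51.8 FPKM in Dnmt3b+/+, 46.2, 43.9 and 43.6 FPKM in Dnmt3b-/- and 53.0, 54.6 and 42.7 FPKM in Dnmt3bCI/CI, with full overlap (adjusted p = 0.722). Usp29, a deubiquitinase gene that shares the Peg3 promoter region, had a log2 fold change of -0.27 ± 0.09 (adjusted p = 0.0656).

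At the Peg10 domain, only Sgce passed, and it was lower. Sgce, which encodes epsilon-sarcoglycan, had 1.45, 1.40 and 1.44 FPKM in Dnmt3b+/+, 0.943, 1.14 and 0.997 FPKM in Dnmt3b-/-, and 1.49, 1.28 and 1.26 FPKM in Dnmt3bCI/CI. The Dnmt3b-/- embryos were all lower (log2 fold change -0.45 ± 0.10, adjusted p = 0.0161), and leaving out Dnmt3b+/+ embryo 3 or Dnmt3b-/- embryo 3 took the adjusted p as high as 0.0526. The Sgce call was also lost with quantile normalization and without the 2 embryos lowest in Nppa. Over all alternatives its adjusted p in limma reached 0.147. The retrotransposon-derived placental gene Peg10 had 32.5, 26.0 and 33.0 FPKM in Dnmt3b+/+, 31.8, 43.4 and 47.3 FPKM in Dnmt3b-/- and 34.7, 31.2 and 30.6 FPKM in Dnmt3bCI/CI. Dnmt3b-/- embryo 1 lay among the controls and embryos 2 and 3 above them (log2 fold change 0.41 ± 0.15, adjusted p = 0.078). Asb4, a maternally expressed ankyrin repeat gene, had 8.61, 5.60 and 8.01 FPKM in Dnmt3b+/+ and 6.52, 11.8 and 12.3 FPKM in Dnmt3b-/-, with the same embryos high (adjusted p = 0.232), and 7.66, 8.36 and 6.85 FPKM in Dnmt3bCI/CI.

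Mest and Copg2 rose together. Mest, a paternally expressed hydrolase-fold gene of mesoderm, had 119.3, 117.0 and 131.2 FPKM in Dnmt3b+/+, 136.6, 182.7 and 176.6 FPKM in Dnmt3b-/-, and 145.5, 137.6 and 135.0 FPKM in Dnmt3bCI/CI. Copg2, which encodes a coatomer subunit, had 32.3, 31.0 and 36.0 FPKM in Dnmt3b+/+, 36.1, 48.8 and 49.0 FPKM in Dnmt3b-/-, and 36.7, 36.5 and 35.2 FPKM in Dnmt3bCI/CI. For both genes Dnmt3b-/- embryo 1 lay just above the highest Dnmt3b+/+ embryo and embryos 2 and 3 well above it. The log2 fold changes were 0.42 ± 0.11 for Mest (adjusted p = 0.0271) and 0.42 ± 0.12 for Copg2 (adjusted p = 0.0318). Both calls were lost without Dnmt3b+/+ embryo 1 or 2 or Dnmt3b-/- embryo 2 or 3, that of Copg2 also without any of the Dnmt3bCI/CI embryos, with adjusted p up to 0.0907 for Mest and 0.109 for Copg2. The genes end in each other on opposite strands, with 23.1% of Mest and 17.8% of Copg2 exon bases shared, and counts there cannot be assigned without strand.

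Within the Prader-Willi/Angelman domain only Peg12 passed, and it was higher. Peg12, an intronless gene of the Frat family of Gsk3-binding proteins (chr7:62461871-62464510, minus strand), had 10.5, 10.6 and 10.5 FPKM in Dnmt3b+/+, 15.7, 13.6 and 14.8 FPKM in Dnmt3b-/-, and 8.28, 9.20 and 9.90 FPKM in Dnmt3bCI/CI. The 3 genotypes did not overlap, with Dnmt3b-/- highest and Dnmt3bCI/CI lowest. Its log2 fold change of 0.48 ± 0.08 (adjusted p = 0.00419) passed in 18 of 18 alternatives. The other paternally expressed genes of the domain, the MAGE family genes Ndn and Magel2, the makorin gene Mkrn3 and the splicing protein gene Snrpn, had log2 fold changes between -0.36 and -0.07 with adjusted p between 0.0617 and 0.811. Ndn, Snrpn, Magel2 and Mkrn3 were all highest in Dnmt3b+/+ embryo 2, at 39.9, 27.9, 6.15 and 2.55 FPKM, the embryo with the highest Tubb3. Without that embryo their log2 fold changes were -0.23, 0.17, -0.13 and -0.08 in the same order, so that of Snrpn changed sign. Ube3a, a ubiquitin ligase gene expressed from the maternal allele in neurons, had 3.46, 3.25 and 3.09 FPKM in Dnmt3b+/+ and 2.74, 2.85 and 2.85 FPKM in Dnmt3b-/- (log2 fold change -0.21 ± 0.08, adjusted p = 0.0754), and 27.3% of its exon bases face antisense genes.

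Among members outside these domains, Commd1 rose and Plagl1 and Inpp5f fell. Commd1, a regulator of copper transport and NF-kappa-B signalling within which Zrsr1 lies on the opposite strand, had 3.79, 3.55 and 3.37 FPKM in Dnmt3b+/+, 4.44, 4.67 and 4.39 FPKM in Dnmt3b-/- and 3.79, 3.99 and 3.96 FPKM in Dnmt3bCI/CI. Every Dnmt3b-/- embryo lay above the 6 others (log2 fold change 0.33 ± 0.06, adjusted p = 0.00931), and the call held in 18 of 18 alternatives. Zrsr1, paternally expressed and related to a splicing factor, overlapped between these genotypes at 1.41, 1.52 and 1.45 against 1.41, 1.38 and 1.28 FPKM (adjusted p = 0.436), and had 1.64, 1.64 and 1.83 FPKM in Dnmt3bCI/CI. Of the exon bases, 9.2% of Zrsr1 and 6.9% of Commd1 are shared between them on opposite strands, so here too reads cannot be assigned without strand, which also touches their ratio below. Plagl1, a paternally expressed zinc finger transcription factor, had 24.0, 22.3 and 27.1 FPKM in Dnmt3b+/+, 20.3, 17.9 and 20.4 FPKM in Dnmt3b-/- and 28.4, 25.9 and 24.5 FPKM in Dnmt3bCI/CI, and the Dnmt3b-/- embryos were all lowest (log2 fold change -0.32 ± 0.09, adjusted p = 0.0324). The Plagl1 call was lost without Dnmt3b+/+ embryo 1 or 3, Dnmt3b-/- embryo 2 or 3 or Dnmt3bCI/CI embryo 2, with adjusted p up to 0.11. Inpp5f, a phosphoinositide phosphatase gene with a paternally expressed variant, had 4.91, 6.73 and 5.27 FPKM in Dnmt3b+/+, 4.45, 3.75 and 3.78 FPKM in Dnmt3b-/- and 4.98, 5.004 and 5.40 FPKM in Dnmt3bCI/CI. It was lower in each Dnmt3b-/- embryo (log2 fold change -0.48 ± 0.12, adjusted p = 0.0219), and the call was lost without Dnmt3b-/- embryo 2 or 3, with adjusted p up to 0.0779. Of the rest, Grb10, an adaptor that restrains insulin and Igf signalling, had adjusted p = 0.214, Nnat 0.366, its host gene Blcap 0.0568, the translation regulator gene Impact 0.224 and Nap1l5 0.145. Nap1l5, a neural nucleosome assembly gene, ranged from 2.21 to 4.64 FPKM among controls and was highest in Dnmt3b+/+ embryo 2, as were Inpp5f and Blcap. Without that embryo the log2 fold change of Inpp5f was -0.34 (limma, adjusted p = 0.0398).

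**Figure D3:**
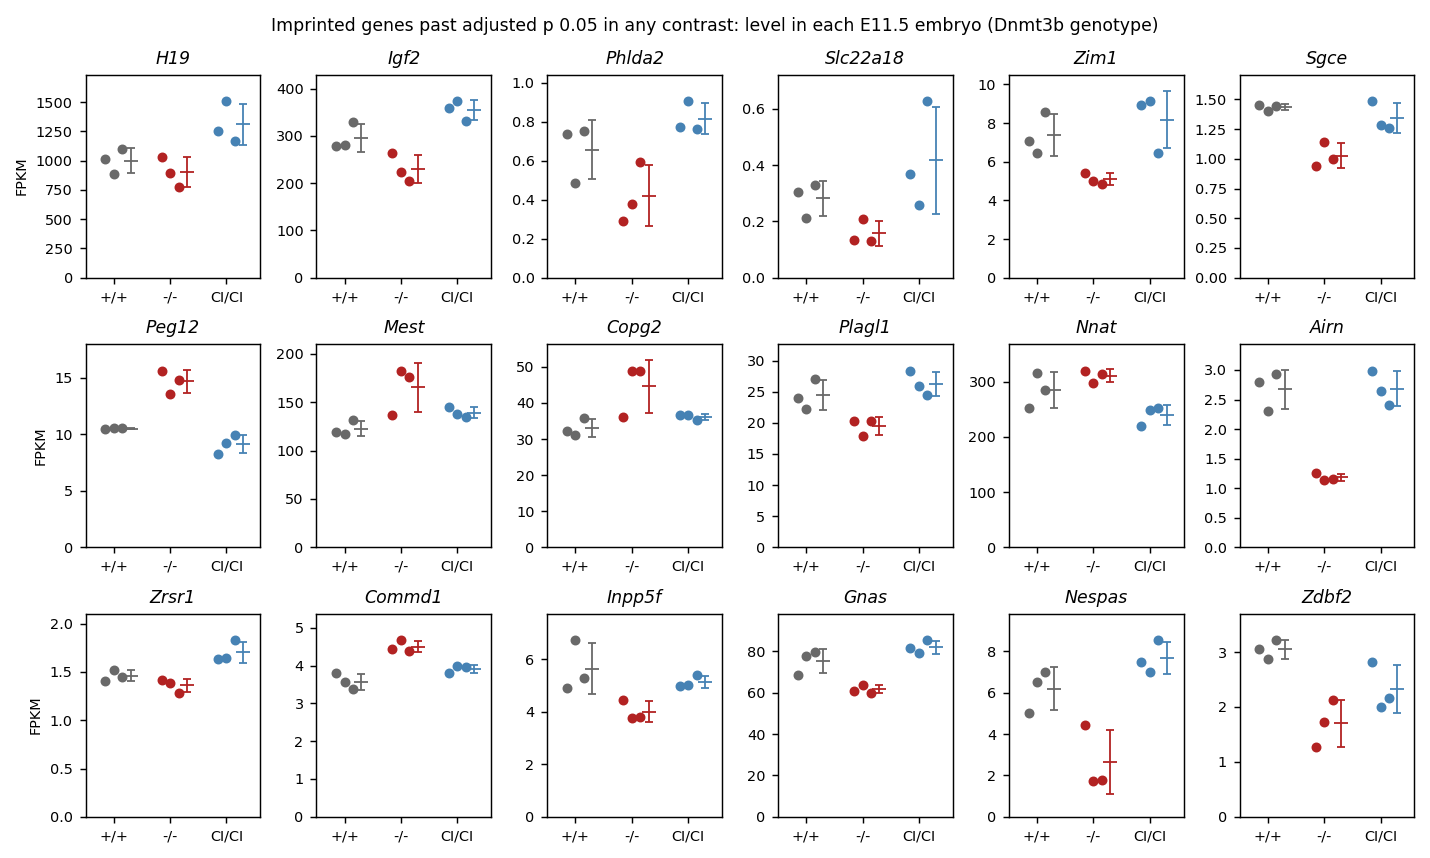
Level in FPKM, on axes from 0, in each of the 9 embryos for the 18 imprinted genes that passed an adjusted p of 0.05 in any comparison, with the mean and SD of 3 embryos beside the points. Airn is low in all 3 Dnmt3b-/- embryos, Nespas, Mest and Copg2 of Dnmt3b-/- embryo 1 lie near the controls, and Peg12 is ordered Dnmt3bCI/CI, Dnmt3b+/+, Dnmt3b-/- without overlap.

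The second comparison asks what remains when the Dnmt3b protein is present and inactive. Between Dnmt3bCI/CI and Dnmt3b+/+, 0 of 35 members passed the adjusted threshold in limma, as against 0.144% of all tested genes, 0 passed with a fold change of at least 2 as well (0.129% of all genes), and 0 passed in any of the alternatives. At an unadjusted p under 0.05 there were 5 of 35, against 5.25% of all genes, with H19 and Zrsr1 higher and Magel2, Nnat and Peg12 lower. The lowest p was that of Magel2, a MAGE family gene, which had 4.92, 6.15 and 5.47 FPKM in Dnmt3b+/+, 4.07, 4.99 and 5.26 FPKM in Dnmt3b-/- and 3.70, 4.03 and 4.19 FPKM in Dnmt3bCI/CI. All Dnmt3bCI/CI embryos lay below all Dnmt3b+/+ embryos, with a log2 fold change of -0.46 ± 0.11 and an adjusted p of 0.572. The embryos did not overlap for 11 members, 8 above and 3 below, against 13.2% of all genes. The members' median log2 fold change was 0.08, with a range from -0.46 to 0.39, and the median of all tested genes was 0.02. For Airn the log2 fold change was 0.0042 ± 0.1142, and for Nespas 0.31 ± 0.32. A miss of the threshold does not show that a level was unaltered, and for genes with a standard error of 0.2 or more, such as Slc22a18, Cdkn1c, Nap1l5 and Asb4, only large differences could have been seen.

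Setting both mutants side by side, 13 of 35 members passed between Dnmt3b-/- and Dnmt3bCI/CI, against 27.9% of all genes, 2 higher (9.7% of all genes) and 11 lower (18.2%). With a fold change of at least 2 there were again Airn and Nespas, against 5.42% of all genes. The embryos of both mutants did not overlap for 19 members, against 46.2% of all genes. This comparison and the first share the Dnmt3b-/- embryos, and it shares the Dnmt3bCI/CI embryos with the second, so their lists are not separate evidence. The log2 fold change was -1.11 ± 0.11 for Airn (adjusted p = 0.000652), -1.63 ± 0.32 for Nespas (adjusted p = 0.00766) and 0.68 ± 0.08 for Peg12 (adjusted p = 0.000871). Igf2 differed by -0.63 ± 0.12 (adjusted p = 0.00631), Plagl1 by -0.43 ± 0.09 (adjusted p = 0.0105) and Gnas by -0.41 ± 0.07 (adjusted p = 0.00437). These 6 passed in 18 of 18 alternatives. Zim1 was lower by a log2 fold change of -0.66 ± 0.15 (adjusted p = 0.0125, and 0.0505 without Dnmt3bCI/CI embryo 1). Nnat was higher and H19, Phlda2, Slc22a18, Sgce and Zrsr1 were lower in Dnmt3b-/-, with adjusted p between 0.026 and 0.0376. Each of these 6 lost the call in 7 or more of the alternatives. The call was lost without Dnmt3bCI/CI embryo 1 or 3 for all 6 and without embryo 2 for all but Slc22a18. It was also lost without Dnmt3b-/- embryo 1 for Sgce, embryo 2 for H19, Phlda2, Nnat and Zrsr1, and embryo 3 for H19, Slc22a18, Sgce, Nnat and Zrsr1, and without Dnmt3b+/+ embryo 1 for H19 and embryo 3 for H19, Sgce and Zrsr1. Adjusted p with an embryo left out rose as high as 0.139 for H19, 0.116 for Sgce, 0.11 for Zrsr1, 0.0987 for Nnat, 0.0886 for Slc22a18 and 0.083 for Phlda2. Quantile normalization also ended the call for all 6. Over all alternatives adjusted p in limma reached 0.418, 0.391, 0.388, 0.118, 0.0934 and 0.108 in the same order of genes. Phlda2 had 0.739, 0.484 and 0.751 FPKM in Dnmt3b+/+, 0.291, 0.378 and 0.594 FPKM in Dnmt3b-/- and 0.775, 0.907 and 0.766 FPKM in Dnmt3bCI/CI. Slc22a18 had 0.303, 0.213 and 0.330 FPKM in Dnmt3b+/+, 0.133, 0.208 and 0.131 FPKM in Dnmt3b-/-, and 0.367, 0.258 and 0.628 FPKM in Dnmt3bCI/CI. Nnat had 251.7, 316.6 and 285.1 FPKM, 320.3, 297.9 and 314.8 FPKM, and 219.1, 249.4 and 251.9 FPKM in the same order of genotypes. In all 3 of these genes the Dnmt3b-/- and Dnmt3bCI/CI embryos did not overlap, and some Dnmt3b+/+ embryos lay among one or the other.

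The ratio of a maternally to a paternally expressed gene of the same domain, taken within each embryo, does not depend on library scaling. Gnas and Commd1 favour the maternal allele only in some tissues, so in whole embryos their ratios do not set a maternal against a paternal level. The ratio was compared for 8 pairs in both mutants against Dnmt3b+/+, 16 comparisons in all, by a two-sided exact permutation test of 3 against 3 embryos, whose smallest p is 0.1 (0.229 after Benjamini-Hochberg adjustment), so no ratio could pass 0.05. Igf2r over Airn was 2.97, 3.46 and 3.12 on the log2 scale in Dnmt3b+/+, 4.14, 4.69 and 4.56 in Dnmt3b-/- and 3.38, 3.51 and 3.19 in Dnmt3bCI/CI. All Dnmt3b-/- embryos were above the others, with a mean difference from Dnmt3b+/+ of 1.28 (exact permutation p = 0.1). Gnas over Nespas was 3.77, 3.57 and 3.50 in Dnmt3b+/+, 3.78, 5.20 and 5.06 in Dnmt3b-/- and 3.45, 3.50 and 3.32 in Dnmt3bCI/CI. Dnmt3b-/- embryo 1 sat at the top of the controls, and the mean difference was 1.07. Commd1 over Zrsr1 was higher in all Dnmt3b-/- embryos, by 0.44, and Zim1 over Peg3 was lower in all of them, with a difference of -0.46. H19 over Igf2 also stood apart, by 0.22. These 5 pairs did not overlap between Dnmt3b-/- and Dnmt3b+/+, while Cdkn1c over Kcnq1ot1 (0.28, exact permutation p = 0.5), Asb4 over Peg10 (0.02, exact permutation p = 0.9) and Copg2 over Mest (-0.0029, exact permutation p = 0.9) did. Copg2 over Mest kept between -1.99 and -1.85 in all 9 embryos. In Dnmt3bCI/CI the ratio of Cdkn1c over Kcnq1ot1 was apart from Dnmt3b+/+, at 9.89, 10.07 and 9.95 against 9.04, 9.67 and 9.44, a difference of 0.59 (exact permutation p = 0.1), as was Gnas over Nespas, with a difference of -0.19 (-0.11 without Dnmt3b+/+ embryo 1).

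**Figure D4:**
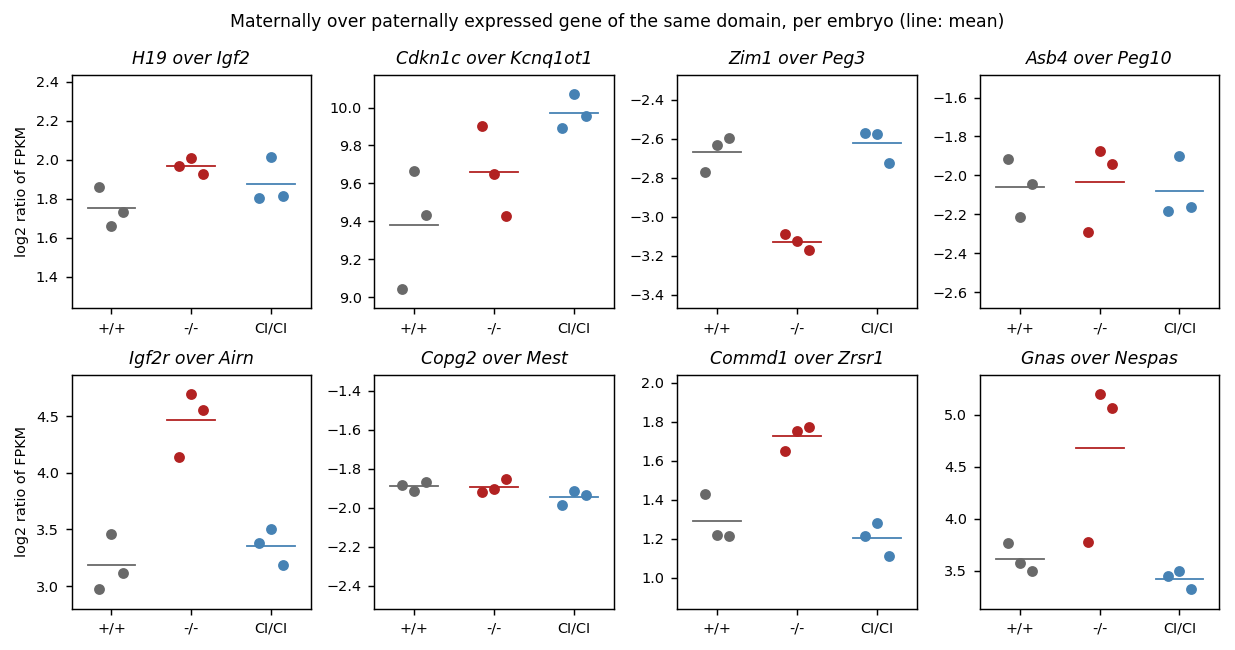
Log2 ratio of the FPKM of a maternally over a paternally expressed gene of the same domain, 1 point per embryo with the mean of 3 as a line, for 8 pairs with an axis range of their own. Gnas and Commd1 favour the maternal allele only in some tissues. Igf2r over Airn and Commd1 over Zrsr1 are high and Zim1 over Peg3 low in all 3 Dnmt3b-/- embryos, Gnas over Nespas is high in embryos 2 and 3, and Copg2 over Mest is level.

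Other genes of the same systems were counted in the same fit for Dnmt3b-/- against Dnmt3b+/+, in which 25.8% of all tested genes passed, 9.41% higher and 16.4% lower. Among 36 further imprinted genes, 31 were tested, 2 rose and 9 fell, with a median log2 fold change of -0.24. Among those that passed, the largest decreases were in Dcn (log2 fold change -1.86), which encodes the matrix proteoglycan decorin, Sfmbt2 (-1.16), a polycomb protein gene, and Klf14 (-1.08), a transcription factor gene. All 6 genes of the Dlk1-Dio3 cluster were tested, 0 rose and 4 fell. Of 18 factors that set or keep imprints, 16 were tested, 5 rose and 3 fell. Uhrf1 rose by a log2 fold change of 0.76, Trim28 by 0.41 and Dnmt1 by 0.37, the gene Dnmt3b itself was higher by 0.57, and Zfp57 fell, with a log2 fold change of -0.31 (adjusted p = 0.0463). Of 19 genes of the insulin-like growth factor axis 4 rose and 5 fell, among them the mRNA-binding protein genes Igf2bp3 (0.66) and Igf2bp1 (0.66), which rose, and the binding protein genes Igfbp5 (-0.85) and Igfbp6 (-1.12) and the secreted protease gene Htra1 (-1.05), which fell. Between Dnmt3bCI/CI and Dnmt3b+/+, 0 genes of these 4 lists passed.

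Markers of single tissues also differed between Dnmt3b-/- and Dnmt3b+/+ embryos, and their part in the values above was not tested. Their counts stand against the same 9.41% higher and 16.4% lower of all tested genes. All 4 cartilage markers fell, with summed levels of 60.8 to 101.6 FPKM against 113.0 to 176.9 FPKM, and 3 of 4 skeletal muscle markers fell, with sums of 70.2 to 92.9 against 88.6 to 181.6 FPKM. The highest of the muscle markers was Actc1, at 45.0 to 82.6 against 53.4 to 136.6 FPKM. Actc1 did not pass in limma (adjusted p = 0.25), so these sums do not stand for the muscle markers that fell. Of 5 erythroid markers 2 rose, the embryonic globins Hbb-bh1 and Hba-x, with sums of 1779 to 5697 against 1329 to 2064 FPKM. Neuron markers (0 of 5 called, sums 143.1 to 272.1 against 177.2 to 344.3 FPKM) and heart markers (0 of 4, 13.6 to 75.7 against 3.83 to 75.6 FPKM) did not pass. Of 6 hepatocyte markers 1 fell, Ttr, with sums of 44.4 to 91.7 against 35.8 to 227.7 FPKM. Ttr was highest, at 35.5 FPKM, in Dnmt3b+/+ embryo 2, which had almost no Alb, so it did not follow the other hepatocyte markers, and it is also on the yolk sac list. Of 8 yolk sac endoderm markers 6 were tested, with 1 higher and 2 lower (Ttr again and Lgmn) and sums of 38.4 to 73.6 against 47.2 to 128.3 FPKM. Of 11 trophoblast markers only 3 were abundant enough to test, with 1 higher and 1 lower, and all 11 together summed to 1.25 to 4.77 against 1.35 to 2.43 FPKM. In Dnmt3bCI/CI no marker of these lists passed against Dnmt3b+/+.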

How the data were processed

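Total RNA of 9 whole embryos was sequenced as paired-end reads. The authors aligned reads with STAR to mm10, kept a mapping quality of at least 50, quantified genes in SeqMonk and deposited FPKM values per gene and embryo. Annotation release, strandedness and the counting of pairs are not given in the sources used here. The table holds 34245 rows, 1 without a gene name, and no zeros, since genes without reads carry a floor worth 0.9 reads. Reads were worked back from FPKM with GENCODE M21 exon lengths (94.9% of values under 200 reads were whole within 0.02) and used only for depth. Genes with at least 0.1 FPKM in 3 of 9 embryos were tested on log2(FPKM + 0.1), which understates changes of low genes, with limma 3.58.1 (R 4.3.3, trend, 3 genotypes in 1 model, Benjamini-Hochberg), tested on simulated data. Python 3.11.15, numpy 2.4.6 and pandas 2.3.3 were used otherwise.

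The members, their domains and all gene lists were chosen with earlier results of these data known, so no set was tested. All 35 members are reported, with values per embryo for those called and for the pairs. Other lists name up to 5 called genes with the largest change. Coordinates are from GENCODE M21 and promoter windows from RefSeq; those of Cdkn1c, Peg10, H19, Impact, Nespas and Sgce were not analysed here. Methylation libraries were not analysed here. Alternatives were the pseudocount, the filter, scaling, a replicate block, 2-group fits and leaving out embryos.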

Additional observations from a re-analysis of the deposited data

How the results depend on the processing

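All member log2 fold changes that passed in the main fit kept their direction under every alternative. Members called between Dnmt3b-/- and Dnmt3b+/+ (main 4 higher, 9 lower, 2 at 2-fold) were 2 higher with no filter, quantile normalization, only the 2 groups, or without the 2 libraries low in heart markers (an alternative chosen after seeing the data). These 2 libraries are also those of the embryos that were female by Xist and Ddx3y, so leaving them out cannot tell sex from heart content. With only the 2 groups 4 were lower. At 2-fold 1 was left with a pseudocount of 1, quantile normalization or only the 2 groups. Between Dnmt3b-/- and Dnmt3bCI/CI (main 2 higher, 11 lower, 2 at 2-fold), 1 was higher with no filter or without the 2 libraries low in heart markers, 7 were lower with no filter, 6 with quantile normalization and 6 without those 2 libraries, and 1 passed at 2-fold with a pseudocount of 1 or quantile normalization. With an embryo left out, members called against Dnmt3b+/+ ranged from 2 to 6 higher, 3 to 13 lower and 1 to 3 at 2-fold, and against Dnmt3bCI/CI from 1 to 7 higher, 5 to 13 lower and 2 to 3 at 2-fold. Beside embryos left out singly, calls against Dnmt3b+/+ were lost for Igf2, Mest, Copg2, Plagl1, Inpp5f, Gnas and Nespas with only the 2 groups, for Igf2, Zim1, Mest, Copg2 and Plagl1 with no filter, for Zim1, Sgce, Mest and Copg2 with quantile normalization, for Igf2 and Plagl1 with median-of-ratios scaling, for Igf2 with a pseudocount of 1, and for Igf2, Sgce, Mest, Copg2, Plagl1 and Zdbf2 without the 2 libraries low in heart markers. The cause of these shifts was not tested.

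Same-numbered embryos of different genotypes were not alike (mean correlation -0.0866 against 0.0478 for others), so the number does not pair them. With a replicate block, 2 members were higher and 5 lower against Dnmt3b+/+ (Igf2, Zim1, Mest, Copg2, Plagl1 and Inpp5f were lost), and 1 higher and 7 lower against Dnmt3bCI/CI.

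Over all genes, calls at 2-fold between Dnmt3b-/- and Dnmt3b+/+ were 863 in the main fit, 193 with a pseudocount of 1, 484 with a filter of 1 FPKM and 614 to 1427 with an embryo left out. Between Dnmt3b-/- and Dnmt3bCI/CI they were 1051, 242, 597 and 751 to 1604. For Dnmt3bCI/CI against Dnmt3b+/+ they were 25, 8 with a pseudocount of 1, 15 without the 2 libraries low in heart markers and 18 to 26 with an embryo left out. Calls by adjusted p in Dnmt3b-/- against Dnmt3b+/+ were 1826 higher and 3175 lower, but 2567 and 2548 with median-of-ratios scaling and 2236 and 2044 with quantile normalization, and against Dnmt3bCI/CI 1882 and 3525, 2921 and 2677, and 2840 and 2281. At 2-fold against Dnmt3b+/+, 208 rose and 655 fell, and 272 and 392 with quantile normalization.

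With a pseudocount of 1 FPKM the ratio differences between Dnmt3b-/- and Dnmt3b+/+ were 0.85 for Igf2r over Airn, 0.33 for Commd1 over Zrsr1 and -0.07 for Cdkn1c over Kcnq1ot1. With an embryo left out they ranged from 1.16 to 1.44, 0.40 to 0.51 and 0.11 to 0.42, and for Gnas over Nespas from 0.81 to 1.52. Ascl2, Slc22a18 and Phlda2 rest on few reads, which limits them.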
